A study of Mus musculus with 17 samples.

Results

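Gm26945, Gm27000 and Gm34667 are 3 predicted mouse genes that were named because their counts differed between hepatocytes edited at the WRE and hepatocytes edited at Rosa26, and they were found by symbol among the 55536 genes of the count files. All 3 passed the filter on low counts, which left 14393 genes. The label under which they were grouped, non-coding transcripts that move with the WRE edit, holds in direction for Gm26945 and Gm27000, which were lower in the WRE-edited libraries. Gm34667 was higher. Because the difference between the edits chose these genes, that difference is given below as a description and no p-value is attached to it. The identifiers in the files are ENSMUSG00000098061 for Gm26945, ENSMUSG00000097961 for Gm27000 and ENSMUSG00000113063 for Gm34667, and each carries 1 annotated transcript.

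Symbols that begin with Gm are given in mouse to gene models whose function is not established. Gm34667 lies in the DLK1/DIO3 domain, an imprinted stretch of chromosome 12 in which the maternal chromosome expresses long non-coding RNAs, among them Meg3, Rian and Mirg, and the paternal chromosome expresses protein-coding genes, among them Dlk1, Rtl1 and Dio3. Long non-coding RNAs of such a domain can share a start of transcription and can host microRNAs and small nucleolar RNAs. β-catenin, the effector of Wnt signalling, binds DNA through TCF/LEF factors, and Apc restrains it.

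Hepatocytes were isolated by collagenase perfusion from C57BL/6J mice aged 3 months of the ApcDHep genotype, so that every group shares the loss of Apc in hepatocytes. SaCas9 constructs were delivered to all mice by AAV8 for 1 month, and tamoxifen (2 mg) was given to all of them for 7 days. The WRE-edited group (6 RNA-seq libraries, labelled DLK1DWRE) had its edit where β-catenin binds upstream of the domain, the site called WRE here, and the Rosa26-edited group (5 RNA-seq libraries, labelled ROSA26) at Rosa26, a locus that serves as the control. By the run in their names, WRE-edited 1 to 3 and Rosa26-edited 1 to 3 belong to r770, WRE-edited 4 and 5 to r711, which lacks a control, and WRE-edited 6 with Rosa26-edited 4 and 5 to r595. The labels do not say whether libraries come from separate animals, so a p-value here reflects only how far these libraries spread, and the names of WRE-edited 4 and 6 share a number. The share of edited alleles and the driver of Cre are not stated in the sources at hand, and the loss of Apc is shared by both groups, so no targeted gene checks the group labels.

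Totals ran from 20727036 to 38935135 expected counts per library. The share of mitochondrial ribosomal RNA was 2.29% to 3.00% in r595, against 19.02% to 29.09% elsewhere. The hepatocyte markers, albumin gene Alb among them, summed to 44869 to 62526 CPM (counts scaled to library size with TMM factors) in WRE-edited libraries and 48797 to 61889 CPM in Rosa26-edited libraries. The 11 stellate cell and fibroblast markers summed to 49.0 to 121 CPM in WRE-edited libraries and 85.2 to 119 CPM in Rosa26-edited libraries. In the fit 11 of 11 of them had negative fold changes (median log2 -0.53) and 0 passed in edgeR. The 7 macrophage markers summed to 338 to 460 CPM in WRE-edited and 306 to 1057 CPM in Rosa26-edited libraries, with 7 of 7 fold changes negative (median -0.44). The 8 endothelial markers summed to 132 to 229.2 CPM in WRE-edited and 146 to 225 CPM in Rosa26-edited libraries, with 8 of 8 negative (median -0.20). The sums were for cholangiocyte markers to 6.18 to 13.3 and 7.36 to 24.2 CPM, neutrophil markers to 2.85 to 5.26 and 2.43 to 17.4 CPM, lymphocyte markers to 0.238 to 1.66 and 0.803 to 2.23 CPM and erythroid markers to 7.47 to 10.53 and 6.48 to 22.8 CPM, WRE-edited before Rosa26-edited libraries. The 3 tested erythroid markers had a median of -1.66, with 2 negative and 1 positive. Of them the globin gene Hba-a1 had -2.44 ± 0.71 (edgeR adjusted p = 0.384) and was called by DESeq2 (-2.60, adjusted p = 0.0256). The globin gene Hbb-bs had -1.66 ± 0.48 (edgeR adjusted p = 0.384, DESeq2 adjusted p = 0.0574). Alas2 went the other way, at 0.45 ± 0.19 (edgeR adjusted p = 0.451, DESeq2 adjusted p = 0.349). None of the tested markers passed in edgeR, and none of those found in the files was at 0 in all libraries. Of the 7 hepatocyte markers 6 were found and tested. Tested were also 2 of 6 cholangiocyte, 2 of 4 neutrophil, 1 of 5 lymphocyte and 3 of 4 erythroid markers. The part of these cells and of ribosomal RNA in the levels below was not tested, and in bulk RNA fewer cells of a type and less RNA per cell cannot be told apart.

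Of the 3 genes, RefSeq's GRCm38.p6 table places Gm34667, a long non-coding RNA gene at chr12:109992758-110023992. It lies 243300 bases beyond Mirg and 255238 bases before Dio3, and its closest annotated neighbour, the long non-coding RNA gene Gm40574, lies 693 bases beyond its start. The window from 250 bases before to 50 after its start is shown beside that of Meg3, a long non-coding RNA of the domain, because the edited site binds a TCF/LEF partner and Gm34667 and Meg3 differed in opposite directions. Capitals mark the TCF/LEF core CTTTGA (reverse TCAAAG) and the TATA core TATAAA (reverse TTTATA), searched on both strands. RefSeq gives 3 nearby starts for Gm34667 and 2 starts for Meg3, and for each gene the window of the outermost is shown. The Gm34667 window is chr12:110023943-110024242 on the minus strand, and the Meg3 window is chr12:109540746-109541045 on the plus strand.
Gm34667: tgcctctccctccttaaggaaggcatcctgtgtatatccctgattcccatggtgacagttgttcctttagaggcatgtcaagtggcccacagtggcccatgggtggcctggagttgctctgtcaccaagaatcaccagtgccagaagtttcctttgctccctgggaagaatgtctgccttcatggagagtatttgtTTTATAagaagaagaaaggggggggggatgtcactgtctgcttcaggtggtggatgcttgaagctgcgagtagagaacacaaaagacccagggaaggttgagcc
Meg3: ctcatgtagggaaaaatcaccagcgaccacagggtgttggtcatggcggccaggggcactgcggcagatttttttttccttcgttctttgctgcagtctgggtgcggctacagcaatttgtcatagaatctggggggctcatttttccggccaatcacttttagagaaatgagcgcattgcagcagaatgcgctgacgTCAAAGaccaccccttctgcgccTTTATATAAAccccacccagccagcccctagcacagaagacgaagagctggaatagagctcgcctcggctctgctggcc

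The Gm34667 window held no TCF/LEF core and 1 TATA core in reverse, from base 197 counted from the 5′ end. The Meg3 window held 1 TCF/LEF core in reverse, from base 199, and 2 overlapping TATA cores (1 in each orientation), from bases 222 and 226. Of all 32851 promoter windows of this length in the table, 16% held the TCF/LEF core and 13.6% the TATA core. The windows also differed in CG dinucleotides, with 1 in the Gm34667 window and 13 in the Meg3 window, against a median of 7.0 over all windows. The windows of Rian and Mirg, which like Meg3 were lower in WRE-edited libraries, held neither core, with 0 and 10 CG dinucleotides. The cores therefore did not go with the direction of the difference across these genes. A match is a description of letters and not of binding.

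Gm26945 was lower in the WRE-edited libraries, with a wide spread among the Rosa26-edited libraries, whose highest CPM was 13.8 times the lowest. In r770 it stood at 0.549, 0.202 and 0.491 CPM in WRE-edited 1, 2 and 3, against 3.75, 0.732 and 1.5 CPM in Rosa26-edited 1, 2 and 3. In r595 it stood at 0.526 CPM in WRE-edited 6, against 10.1 and 5.47 CPM in Rosa26-edited 4 and 5. Within each of these runs every WRE-edited library was below every Rosa26-edited library. The r711 libraries, WRE-edited 4 and 5, had 1.47 and 1.41 CPM. They were above Rosa26-edited 2 of r770 and just under Rosa26-edited 3, so the groups overlapped when runs were pooled. Group means were 0.776 ± 0.533 CPM (SD, n = 6) in WRE-edited and 4.32 ± 3.75 CPM (SD, n = 5) in Rosa26-edited libraries. With the run as a term the log2 fold change was -2.75 ± 0.55 (SE). The mean difference in log2 CPM was -1.89 within r770 and -3.65 within r595.

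Gm27000 was also lower in the WRE-edited libraries, with another order of libraries. In r770 it stood at 0.220, 0.954 and 0.561 CPM in WRE-edited 1, 2 and 3, against 3.54, 1.65 and 3.89 CPM in Rosa26-edited 1, 2 and 3. In r595 WRE-edited 6 had 0.0877 CPM, against 3.48 and 0.661 CPM in Rosa26-edited 4 and 5. Again the groups did not overlap within r770 or r595. WRE-edited 4 and 5 of r711 had 0.761 and 0.889 CPM, and these and WRE-edited 2 were above Rosa26-edited 5, the lowest control. Group means were 0.579 ± 0.358 CPM (SD, n = 6) in WRE-edited and 2.64 ± 1.41 CPM (SD, n = 5) in Rosa26-edited libraries, and the log2 fold change was -2.72 ± 0.60 (SE), with -2.34 within r770 and -3.34 within r595.

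Gm34667 was higher in the WRE-edited libraries. In r770 it stood at 0.512, 1.10 and 0.596 CPM in WRE-edited 1, 2 and 3, against 0.416, 0.244 and 0.285 CPM in Rosa26-edited 1, 2 and 3. In r595 WRE-edited 6 had 0.614 CPM, against 0.333 and 0.0734 CPM in Rosa26-edited 4 and 5. The groups did not overlap within either run, although WRE-edited 1 and Rosa26-edited 1 were close. WRE-edited 4 and 5 of r711 had 0.999 and 0.323 CPM, and WRE-edited 5 was below Rosa26-edited 1 and 4. Group means were 0.691 ± 0.298 CPM (SD, n = 6) in WRE-edited and 0.270 ± 0.127 CPM (SD, n = 5) in Rosa26-edited libraries. The log2 fold change was 1.32 ± 0.51 (SE), with 1.02 within r770 and 1.5 within r595.

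**Figure D1:**
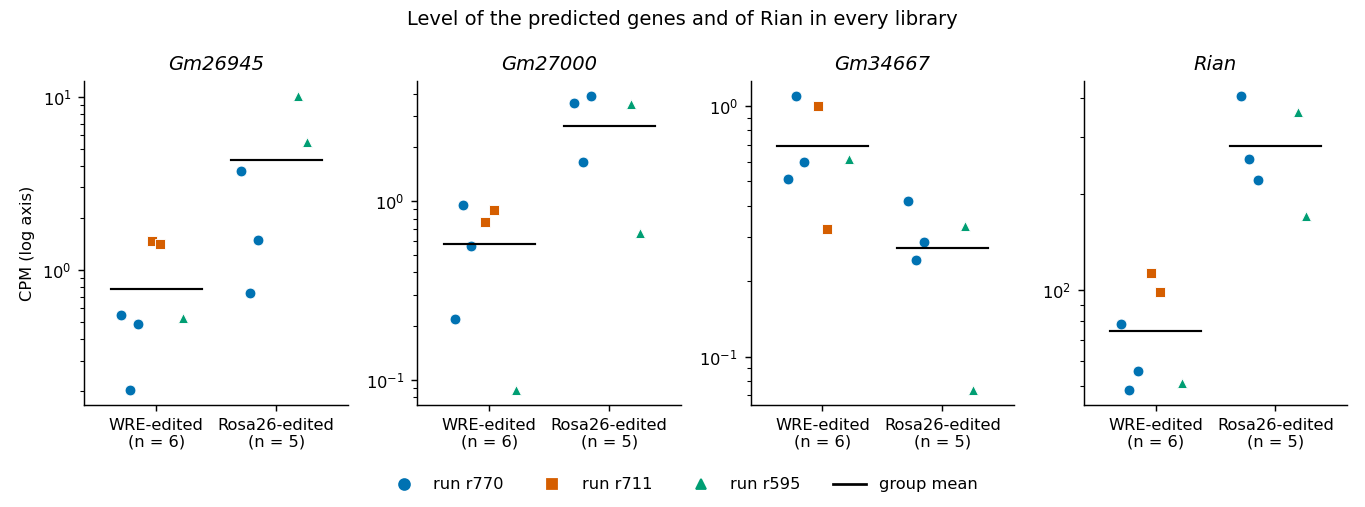
CPM on log axes of Gm26945, Gm27000, Gm34667 and, for scale, Rian in each of 6 WRE-edited and 5 Rosa26-edited libraries, with colour and shape for the run and a bar for the group mean. Gm26945 and Gm27000 means are 0.776 and 0.579 CPM in WRE-edited against 4.32 and 2.64 CPM in Rosa26-edited libraries, while Gm34667 runs the other way (0.691 against 0.270 CPM).

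Across all 14393 genes, the WRE-edited and Rosa26-edited libraries did not overlap in the same direction in r770 and in r595 for 4.31% (2.43% lower and 1.88% higher), while the 3 genes, chosen on this contrast, all met that condition. With runs pooled, 0.375% of genes did not overlap between the 6 and 5 libraries, and none of the 3 genes was among them. In r595, with 1 library against 2, 74.8% of genes did not overlap, against 7.64% in r770. Ranked by fold change, Gm26945 was the 4th lowest and Gm27000 the 5th lowest of 14393 genes, and Gm34667 the 19th highest. Their place follows from their choice. A log2 fold change of -2 or less was seen for 0.167% of genes and one of 1 or more for 0.396%. edgeR called 0.00695% of genes at an adjusted p under 0.05 in this contrast, which was Rian alone, and DESeq2 0.563%. With 1 library left out, edgeR called 0 genes without WRE-edited 2, 3, 4, 5 or 6 or Rosa26-edited 2, and 2 genes without Rosa26-edited 3.

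These levels rest on few reads. Gm34667 had 8 to 38 expected counts in WRE-edited libraries and 2 to 14 in Rosa26-edited libraries, or 112 and 41 in all. Its 95% exact (Clopper-Pearson) interval, which covers counting error only, was 0.280 to 0.860 CPM in WRE-edited 1 and 0.228 to 0.699 CPM in Rosa26-edited 1, so these libraries cannot be told apart at this depth. It was 0.336 to 1.03 CPM in WRE-edited 6, against 0.152 to 0.632 CPM in Rosa26-edited 4, which overlaps it, and 0.00889 to 0.265 CPM in Rosa26-edited 5, which does not. Gm27000 had 1.68 to 33.14 expected counts in WRE-edited libraries and 18.07 to 119.3 in Rosa26-edited libraries, and Gm26945 had 7 to 35 and 24 to 274. For Gm26945 the interval was 1.00 to 2.09 CPM in WRE-edited 4 and 0.469 to 1.09 CPM in Rosa26-edited 2, the libraries at the edge of the overlap.

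The counts of Gm27000 were not whole in any of the 11 libraries (tolerance 0.005). RSEM, the program behind these counts, divides a read between genes when it maps to more than 1 place, and its counts are then fractional. Among all tested genes 15.1% were fractional in every library and 63.6% whole in every library. Gm26945 and Gm34667 had whole counts in 11 of 11 libraries. The value of Gm27000 is therefore uncertain to the extent that its reads are shared, and the genes it shares them with are not given in the files.

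Per length the genes are compared in TPM (a share of transcripts that corrects for length, as RSEM gives it). In WRE-edited libraries the mean was 0.303 ± 0.253 TPM for Gm26945, 0.597 ± 0.424 TPM for Gm27000 and 0.425 ± 0.206 TPM for Gm34667 (SD, n = 6). In Rosa26-edited libraries it was 1.85 ± 1.84, 2.76 ± 1.6 and 0.172 ± 0.0817 TPM (SD, n = 5). In the WRE-edited group the means of Gm26945 and Gm27000 differ by less than the SD of Gm27000 but by more than that of Gm26945, and in the Rosa26-edited group Gm34667 is the lowest. Meg3 was far above all of them at 14.51 to 33.01 TPM in WRE-edited libraries, against 26.44 to 208.3 TPM in Rosa26-edited libraries. Rian was at 27.41 to 77.2 TPM in WRE-edited libraries, against 122.28 to 260.55 TPM in Rosa26-edited libraries. By mean TPM over all libraries, Gm26945, Gm27000 and Gm34667 were at percentiles 27.5, 35.5 and 11.2 of the tested genes.

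The run is a contrast that did not choose the genes, and it was tested. r595 holds 1 WRE-edited and 2 Rosa26-edited libraries, and r770 holds 3 of each. With uneven groups, the run and group terms of the fit are not wholly independent. In r595 over r770, with the group as a term, Gm26945 had a log2 difference of 1.55 ± 0.51 (SE; edgeR adjusted p = 0.0593) and did not pass there, while DESeq2 called it (adjusted p = 0.0180). In edgeR it passed without WRE-edited 6 (1.96, adjusted p = 0.0493) and without Rosa26-edited 1 (2.05, adjusted p = 0.0355). The mean was 7.80 ± 3.30 CPM (n = 2) in Rosa26-edited libraries of r595 and 1.99 ± 1.57 CPM (n = 3) in those of r770. Gm27000 had -0.94 ± 0.62 (edgeR adjusted p = 0.330) and -2.33 ± 0.62 (adjusted p = 0.0371) without Rosa26-edited 4. Gm34667 had -0.47 ± 0.57 (adjusted p = 0.628). So 0 of 3 passed in edgeR against 16.2% of all genes (7.11% higher and 9.07% lower). At an unadjusted p under 0.05 it was 1 of 3, Gm26945, against 30.8% (14.8% higher and 16% lower). In DESeq2 it was 1 of 3, against 20.8%.

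Among WRE-edited libraries, Gm26945 was at 1.44 ± 0.043 CPM (SD, n = 2) in r711 against 0.414 ± 0.186 CPM (SD, n = 3) in r770. In the fit over all 11 libraries its log2 difference, r711 over r770, was 2.10 ± 0.65 (SE; edgeR unadjusted p = 0.00769, adjusted p = 0.247). That fit sets r711 against an r770 level that uses the group effect of all runs. The r711 difference is therefore not free of the contrast that chose the genes. Gm27000 had 0.69 ± 0.74 and Gm34667 -0.22 ± 0.65, with adjusted p of 0.720 and 0.907 in edgeR. The difference of Gm34667 was 0.08 without WRE-edited 2 and 0.38 without WRE-edited 5, so its direction rests on these libraries. None of the 3 passed in edgeR, where 0.118% of all genes did (0.0695% higher and 0.0486% lower), nor in DESeq2 (adjusted p 0.0711, 0.709 and 0.921), where 1.56% did. At an unadjusted p under 0.05 it was 1 of 3 in edgeR, against 13.2% of genes (6.37% higher and 6.82% lower). By mean the order of Gm26945 was Rosa26-edited r595, Rosa26-edited r770, WRE-edited r711, WRE-edited r595 (0.526 CPM) and WRE-edited r770. WRE-edited r711 lay within 1 SD of Rosa26-edited r770, and the single WRE-edited library of r595 lay within 1 SD of WRE-edited r770.

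Whether the edit effect differed between r595 and r770 was tested as an interaction over the 9 libraries of these runs, and 0 of 14582 genes passed in edgeR (6.52% at an unadjusted p under 0.05). The difference of the log2 effects, r595 minus r770, was -1.60 ± 1.17 (SE; adjusted p = 0.814) for Gm26945, -2.15 ± 1.66 (adjusted p = 0.826) for Gm27000 and 0.36 ± 1.09 (adjusted p = 0.958) for Gm34667. It was -2.45 for Gm26945 without Rosa26-edited 1, -0.50 for Gm27000 without Rosa26-edited 4, and for Gm34667 -0.35 without Rosa26-edited 5 and 1.77 without Rosa26-edited 4. Standard errors over 1 log2 unit leave room for large differences, since r595 held 1 WRE-edited library.

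**Figure D2:**
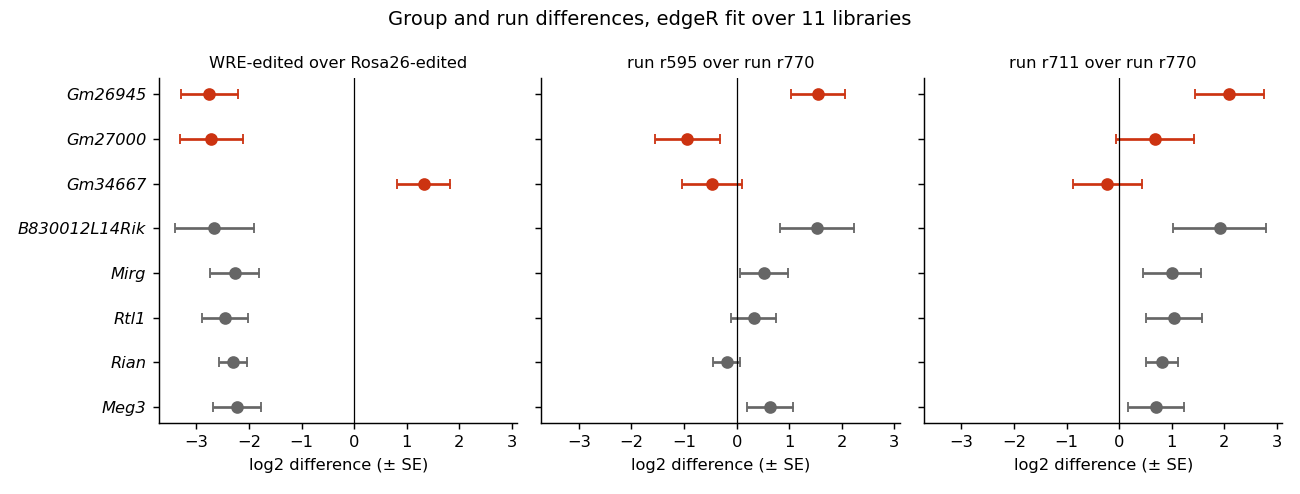
Log2 differences with standard errors from the edgeR fit over 11 libraries for the 3 predicted genes (red) and 5 transcripts of the DLK1/DIO3 list (grey), for WRE-edited over Rosa26-edited, r595 over r770 and r711 over r770. Gm26945 and B830012L14Rik lie close together in all 3 panels (-2.75 and -2.66, 1.55 and 1.52, 2.10 and 1.91), and Gm34667 lies on the other side of zero from the rest in the first panel (1.32).

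The levels were also compared with Meg3 and Rian, long non-coding RNAs of the domain. Since both differ between the groups, a correlation over all libraries would repeat the group difference, so the mean of each run and group was subtracted first. That left 10 libraries, because WRE-edited 6 is alone in its run and group. With Meg3, Pearson's r was 0.765 for Gm26945 (exact permutation p = 0.0556, adjusted 0.208; Spearman's rho 0.758, exact p = 0.0417, adjusted 0.125). For Gm27000 it was 0.707 (exact permutation p = 0.215, adjusted 0.323; rho 0.564, exact p = 0.347, adjusted 0.521), and for Gm34667 0.741 (exact permutation p = 0.104, adjusted 0.208; rho 0.745, exact p = 0.146, adjusted 0.292). With Rian r was 0.750 for Gm26945 (exact permutation p = 0.0694, adjusted 0.208; rho 0.818, exact p = 0.0417, adjusted 0.125), 0.264 for Gm27000 (exact permutation p = 0.792, adjusted 0.792; rho 0.248, exact p = 0.847, adjusted 0.847) and 0.460 for Gm34667 (exact permutation p = 0.417, adjusted 0.5; rho 0.455, exact p = 0.597, adjusted 0.717). None of the 6 relations passed. Permutations were two-sided and within run and group, 144 in number, so that no p under 0.00694 can be had.

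Gm34667 had a positive r with Meg3 within runs and groups, although the groups differed in opposite directions for these genes. Without the libraries farthest out on the Meg3 axis, Rosa26-edited 2 and 5, r with Meg3 was 0.590 for Gm26945, 0.411 for Gm27000 and 0.715 for Gm34667. Without Rosa26-edited 1 and 4, the farthest on the Rian axis, r with Rian was 0.567, -0.204 and 0.141. The means were not taken anew for these values. In a run and group of 2 libraries the deviations are equal and opposite, as for Rosa26-edited 4 and 5 (0.9408 and -0.9408 for Meg3). Leaving out 1 of such a pair keeps the other equally far out, here and for the pairs below, so its influence is not removed. For Gm27000 with Rian, r was -0.419 without Rosa26-edited 4 and 5, the Rosa26-edited libraries of r595. Leaving out 1 of them leaves the other alone in its run and group, so both drop out together. Among the predicted genes themselves, r was 0.254 for Gm26945 with Gm27000 (exact permutation p = 0.576, adjusted 0.576; rho 0.152, exact p = 0.778, adjusted 0.778), 0.221 for Gm26945 with Gm34667 (exact permutation p = 0.458, adjusted 0.576; rho 0.248, exact p = 0.569, adjusted 0.778) and 0.692 for Gm27000 with Gm34667 (exact permutation p = 0.118, adjusted 0.354; rho 0.745, exact p = 0.0833, adjusted 0.250). These 3 relations did not pass either. Without WRE-edited 1 and Rosa26-edited 5, r of the first pair was 0.373, and without WRE-edited 4 and Rosa26-edited 4, r was 0.126 for the second pair and 0.711 for the third.

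**Figure D3:**
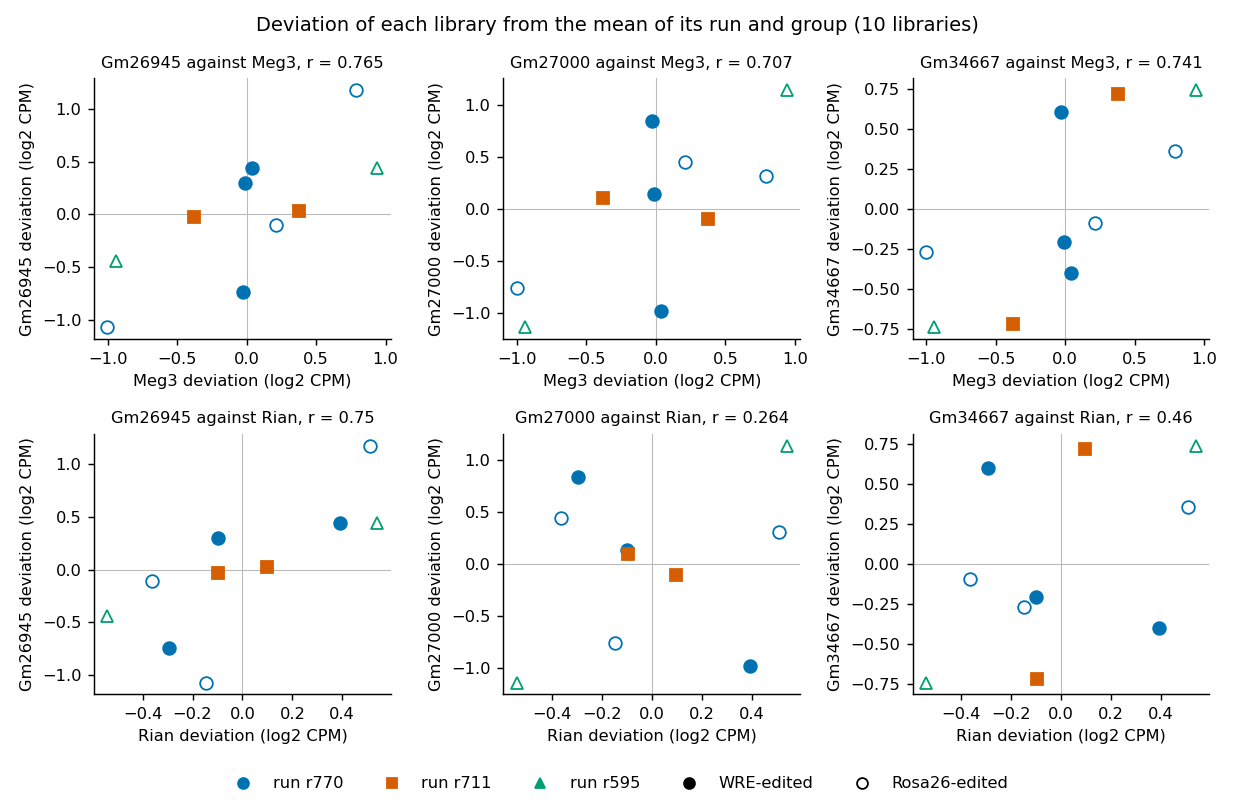
Each point is 1 of 10 libraries, placed by its deviation in log2 CPM from the mean of its run and group for Meg3 (top) or Rian (bottom) on the horizontal axis and for a predicted gene on the vertical axis; filled points are WRE-edited and open points Rosa26-edited libraries. The Rosa26-edited libraries span most of the Meg3 axis, and r with Meg3 lies between 0.707 and 0.765 with none of the 6 relations passing.

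Over the 11 libraries, with groups and runs left in, the genes whose log2 CPM followed each predicted gene most closely were different for each. These correlations describe the same libraries that show the group difference and carry no p-value. For Gm26945 they were the non-coding transcript B830012L14Rik (r = 0.971), the predicted gene Gm37899 (0.968), Rtl1, a gene derived from a retrotransposon (0.941), Mirg, which hosts many microRNAs (0.930), and Slc34a2, a sodium-phosphate cotransporter gene (0.927). Of these, 3 belong to the DLK1/DIO3 list, and Meg3 stood at place 10 and Rian at place 73 of 14374 genes. Within runs and groups r was 0.925 with B830012L14Rik, 0.967 with Gm37899, 0.963 with Rtl1, 0.870 with Mirg and 0.874 with Slc34a2.

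Gm26945 and B830012L14Rik had similar run and group profiles, with a difference in r770. There the groups did not overlap for Gm26945 but did for B830012L14Rik (0.622 CPM in WRE-edited 1 against 0.366 CPM in Rosa26-edited 2). Rosa26-edited 4 was the highest for each, at 10.1 CPM for Gm26945 and 9.32 CPM for B830012L14Rik. Among WRE-edited libraries the r711 libraries were the highest for each (1.47 and 1.41 CPM, and 0.904 and 1.13 CPM). The ratio of the CPM of Gm26945 to that of B830012L14Rik lay between 0.882 and 2.00 in WRE-edited libraries and between 1.09 and 2.00 in Rosa26-edited libraries, while each gene itself varied more widely. Gm37899 had a log2 fold change of -2.80 ± 0.67, the lowest of the 1511 tested genes with symbols of the Gm kind. It was picked by its r with Gm26945 over libraries that hold the group difference. Its fold change is therefore a description, and no p-value is attached to it.

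For Gm27000 the closest were Cenpu, a centromere protein gene (r = 0.895), Fanci of the Fanconi anaemia DNA repair pathway (0.871), the zinc finger gene Zfp101 (0.858), Papln (0.846) and Drp2 (0.845), with Rian at place 9, Meg3 at place 30 and Mirg at place 514. Within runs and groups r was 0.580 with Cenpu, 0.520 with Fanci, 0.857 with Zfp101, 0.874 with Papln and 0.698 with Drp2. For Gm34667 they were the phosphatase gene Ptpn9 (0.875), Adck5 (0.872), the choline kinase gene Chkb (0.867), Lrrc8a, a subunit of volume-regulated anion channels (0.866), and Rapgef4, an exchange factor for Rap (0.863). Within runs and groups these r were 0.856, 0.754, 0.773, 0.719 and 0.821. Over the 11 libraries Gm34667 had negative r with Meg3 (-0.43), Rian (-0.56) and Mirg (-0.67). Within runs and groups its r with Mirg was -0.03.

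Of the 8 genes of the DLK1/DIO3 list 5 were tested, and their log2 fold changes, WRE-edited over Rosa26-edited, ran from -2.66 for B830012L14Rik to -2.23 for Meg3 with a median of -2.30, beside 0.01 over all genes. edgeR called 1 lower, Rian (-2.30 ± 0.26, adjusted p = 0.0188), and 5 of 5 were lower at an unadjusted p under 0.05, where 5.14% of all genes were (10.1% in either direction). DESeq2 called all 5 lower, with adjusted p of 0.00229 for Meg3, 1.25e-16 for Rian, 8.64e-07 for Rtl1, 0.00349 for Mirg and 0.0128 for B830012L14Rik. Gm26945 and Gm27000 at -2.75 and -2.72 were thus a little below the lowest of this list, by less than their standard errors. Dlk1, the gene of a transmembrane protein related to Notch ligands, and Dio3 and Dio3os did not reach the filter, with 17, 11 and 28 counts over the 6 WRE-edited libraries, against 30, 4 and 19 over the 5 Rosa26-edited libraries.

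RefSeq lists 23 genes other than microRNA and small nucleolar RNA genes between Dlk1 and Dio3, and 16 of them are in the files. Only Meg3, Rtl1, Rian, Mirg and Gm34667 of these 16 reached the filter. B830012L14Rik of the DLK1/DIO3 list, which was tested, is not among the 23. RefSeq does not place Gm26945, Gm27000 or Gm37899, so whether they lie in this interval is not known here. On the Dio3 side of Mirg, where Gm34667 lies, other genes had few counts. The pseudogene Gm3379, named here after its values were seen, had 18.36 expected counts over the WRE-edited libraries, against 1.2 over the Rosa26-edited libraries, and its counts were fractional. The long non-coding RNA gene 3110009F21Rik had 9 and 5 counts, Gm34785 5 and 1, Gm40576 2 and 2, and Gm34719 0 and 0. The RefSeq span of Rtl1 overlaps those of Meg3 and Rian. Reads of overlapping or antisense transcripts cannot be separated here, since no source at hand states whether counting used strand.

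**Figure D4:**
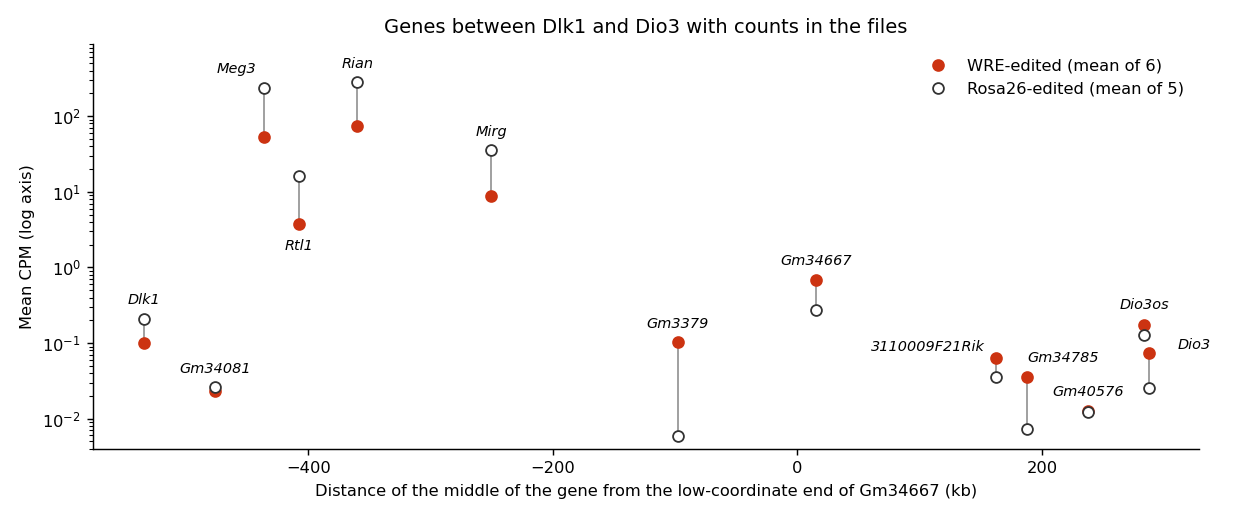
Mean CPM on a log axis of genes between Dlk1 and Dio3 with counts in the files, WRE-edited (red, mean of 6) and Rosa26-edited (open, mean of 5), by the distance in kb of the middle of the gene from the low-coordinate end of Gm34667. Meg3, Rtl1, Rian and Mirg are lower in WRE-edited libraries, and Gm34667, at 0.691 against 0.270 CPM, is higher. The other genes drawn rest on 30 counts or fewer per group. B830012L14Rik, Gm26945 and Gm27000 are not in the RefSeq list of this interval and are not drawn.

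Genes that flank the domain showed no call. Of 21 listed genes 17 were tested, 11 with positive and 6 with negative fold changes, a median of 0.08 (-0.0003 without WRE-edited 2 and 0.14 without WRE-edited 6) and 0 passing in edgeR (1 at an unadjusted p under 0.05, the transcription factor gene Yy1 at 0.39 ± 0.18, where 4.95% of all genes were higher). Long non-coding RNAs outside the domain had a median of -0.27 over 19 tested, 16 of them negative, with 0 passing in edgeR and 2 lower at an unadjusted p under 0.05. These were Dleu2 (-0.75 ± 0.18, edgeR adjusted p = 0.325), host of miR-15a and miR-16-1, which DESeq2 called (adjusted p = 0.0314), and Mir22hg (-0.42 ± 0.16, adjusted p = 0.441). Malat1, an abundant nuclear RNA, had -0.65 ± 0.39 (adjusted p = 0.577). That median was 0.04 in r770 alone and 0.03 without WRE-edited 6. The 1511 tested genes with symbols of the Gm kind had a median of -0.16, with 585 positive and 926 negative, 0 passing in edgeR and 86 at an unadjusted p under 0.05 (34 higher and 52 lower). Their median was 0.03 in r770 alone and 0.03 without WRE-edited 6.

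The fold changes of the 3 genes kept their sign in all 22 alternatives run, from -3.08 to -2.11 for Gm26945, -3.27 to -1.83 for Gm27000 and 1.07 to 1.54 for Gm34667. Without WRE-edited 6, which takes r595 out of the effect, they were -2.28, -2.35 and 1.22.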

How the data were processed

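Each library was deposited as a table per Ensembl gene of expected counts, TPM and effective lengths (other values, in bases, per the file headers). The submitters' processing notes name STAR 2.7.6a, RSEM 1.3.1, the GRCm38 build, DESeq2 1.26.0 and R 3.6.3; no source at hand states the annotation version or use of strand. A deposited matrix of normalized signal for 15322 genes served as an alternative (Spearman's rho 0.994 to 0.998 with log2 CPM across genes). Runs read from library names matched those in the submitters' deposited design file, whose run column holds a run number (other) per library, in 11 of 11 libraries. The miRNA-seq libraries were not used.

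Symbols were matched for 55450 of 55536 identifiers. Expected counts were rounded and filtered with filterByExpr by group (minimum count 10, minimum total 15). edgeR 4.0.16 in R 4.3.3 was fitted with TMM factors, a robust quasi-likelihood test (two-sided, Benjamini-Hochberg over all genes, threshold 0.05) and run and group as terms, with 7 residual degrees of freedom. r711, with no control, informs the spread but not the group effect. The SE of an edgeR log2 difference was derived as its absolute value over the square root of its quasi-likelihood F statistic. Log2 CPM used a prior count of 2. DESeq2 1.42.0 was an alternative. The methods were tested on simulated data. The 3 genes and all gene lists were chosen with earlier results of these data known. The genes named were the 3 genes, the DLK1/DIO3 list, the 5 closest by r over 11 libraries, neighbours, and up to 3 of each other list by smallest p.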

Additional observations from a re-analysis of the deposited data

How the results depend on the processing

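The fold changes of the 3 genes kept their direction and moved by less than the spread between replicates in all 22 alternatives, and with libraries left out in turn they ran from -3.08 to -2.27 for Gm26945, -3.27 to -2.35 for Gm27000 and 1.07 to 1.54 for Gm34667. Depth limits all 3 genes, with 114, 94.41 and 112 expected counts over the WRE-edited libraries, against 615, 394.46 and 41 over the Rosa26-edited libraries, for Gm26945, Gm27000 and Gm34667. The causes of the changes that follow were not tested. Genes called between the edits (1) numbered 81 with DESeq2, 450 with no filter, 0 without the run term, 0 in r770 alone, 0 without WRE-edited 3 and 6 (the lowest in stellate markers) and 0 to 2 with 1 library left out. Genes called in r711 against r770 (17) numbered 215 with DESeq2, 492 with no filter, 9 with effective lengths, 0 without WRE-edited 3 and 6 and 0 to 22 with 1 library left out. Genes called in r595 against r770 (2329) numbered 1514 without WRE-edited 3 and 6 and 1428 to 2381 with 1 library left out.

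Gm26945 in r595 over r770 was 1.51 with DESeq2 (adjusted p = 0.0180) and 1.52 with no filter in edgeR (adjusted p = 0.000145), and 1.04 to 2.05 with 1 library left out, passing in edgeR without WRE-edited 6 (1.96, adjusted p = 0.0493) and without Rosa26-edited 1 (adjusted p = 0.0355). In r711 over r770 it was 2.07 with no filter (edgeR adjusted p = 0.000232). Gm27000 in r595 over r770 ran from -2.33 to -0.52 with 1 library left out. Gm34667 in r711 over r770 ran from -1.23 to 0.38, with 0.08 without WRE-edited 2 and 0.38 without WRE-edited 5. The difference in edit effect ran from -2.45 to -1.09 for Gm26945 and -2.89 to -0.50 (without Rosa26-edited 4) for Gm27000. For Gm34667 it ran from -0.35, without Rosa26-edited 5, to 1.77.

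List medians moved too. The flanking genes had 0.15 in r770 alone and -0.0003 (without WRE-edited 2) to 0.14 (without WRE-edited 6) with 1 library left out. The long non-coding RNAs had 0.0417 in r770 alone, 0.15 without WRE-edited 3 and 6, and -0.44 to 0.029. The predicted genes had 0.034 in r770 alone, 0.11 without WRE-edited 3 and 6, and -0.28 to 0.0269. Correlations were also taken over the 6 WRE-edited libraries alone, with run differences left in and permutation across runs. There r with Rian was 0.904 for Gm26945 (exact permutation, adjusted p = 0.0167) and -0.256 for Gm34667. With Meg3 it was 0.128 for Gm27000 and 0.327 for Gm34667. The r711 libraries, WRE-edited 4 and 5, were the highest of the 6 for Gm26945 (1.47 and 1.41 CPM) and for Rian (113 and 99.0 CPM). The part of the run in these r was not tested. With run and group means subtracted, the r of Gm27000 with Rian ran from -0.419 to 0.637 with 1 library left out. Where a run and group held 2 libraries, leaving out 1 dropped both.

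Deviations of same-numbered libraries correlated at over 0.1 in 2 of 5 pairs (-0.246 to 0.154). Those 2 pairs, numbers 4 and 5, join r711 to r595 and come from runs and groups of 2 libraries. Their deviations are equal and opposite, so both pairs give the same value. These values cannot decide whether replicate numbers pair the libraries. With the replicate number as a block and the run term, 2 genes were called between the edits, and the list medians were 0.16 for flanking genes, -0.0037 for long non-coding RNAs and 0.0541 for predicted genes. With the block and no run term the long non-coding RNAs had 0.0132 and the predicted genes 0.0312. Run differences could not be estimated with the block.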
